A study of Mus musculus with 6 samples.

Results

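The DEAD and DEAH box RNA helicases are the gene family described here, in mouse cells that the labels call female germ line stem cells. Members were all genes of the deposited table whose symbol is Ddx or Dhx followed by a number and at most 1 letter. Of 53 such symbols, 4 were left out (Ddx4, Ddx58, Dhx58 and the Y-linked Ddx3y), which gave 49 members of 54231 genes, 34 named Ddx and 15 named Dhx. RNA was sequenced from 3 libraries treated with C89, a compound with no name in the labels but this code, and from 3 control libraries titled DMSO, a solvent, all at 8 h. The title of the study places its question in autophagy and PI3K-AKT signalling. No dose, strain, age or line is given in the labels, nor whether the replicates were separate cultures, so each p-value reflects the scatter of these libraries alone, and that scatter may be technical.

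DEAD and DEAH box proteins are named after a short run of amino acids in the site that binds and splits ATP. They use ATP to pry apart short RNA duplexes or to strip proteins from RNA, and DEAD box proteins mostly act locally while DEAH box proteins tend to travel along a strand. Different members are dedicated to different steps, such as splicing, the building of ribosomes, export of mRNA, translation and decay, so that most dividing cells use many of them at once.

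Libraries held 7772060 to 17938295 recovered reads in C89 and 17826569 to 21763459 in DMSO, and values below are normalized read counts. Germ cell markers were close to absent: 4 of 10 (Dazl, Dppa3, Nanos3 and Tfap2c) had no read in any library, and all 10 together came to 32.5 to 67.3 in C89 and 47.8 to 139 in DMSO libraries. The summed mast cell markers were at 84001 to 95209 in C89 and 49439 to 59271 in DMSO libraries, with 4 of 6 tested markers higher. However, Ms4a2 had no read, Fcer1a averaged 0.425 in C89 and 0 in DMSO, and 5 of the 10 markers averaged under 10. Kit, Gata2 and Cpa3 held most of the sum. The call of Kit was lost when any 1 library was left out (limma adjusted p = 0.056 to 0.1055). It was also lost with scaling by total reads and with C89 libraries 2 and 3 averaged. Fibroblast markers summed to 54.9 to 136 in C89 and 135 to 2442 in DMSO libraries, with 3 of 8 tested markers lower (1 when DMSO library 2 was left out, 7 when DMSO library 3 was, 6 with edgeR) and Lum and Postn without a read. Macrophage markers summed to 4336 to 4700.5 in C89 and 2043 to 3052 in DMSO libraries, with 2 of 8 tested markers higher and C1qb without a read. The part of these shifts in the results below was not tested, and in bulk samples fewer cells of a type and less RNA per cell cannot be told apart. The second and the third C89 library were nearly alike: 0.686% of genes had counts farther apart than sampling noise allows, where the other pairs within a group had 25.7 to 48.7%. They were kept as separate libraries, and calls that were lost with their mean as 1 library are named below.

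Ddx55 stood far from its family. Its product, whose yeast counterpart is Spb4, acts in the maturation of the large ribosomal subunit. Ddx55 (ENSMUSG00000029389) was at 5616, 6166 and 6197 normalized counts in C89 libraries, against 1559.8, 1222 and 925 in DMSO libraries. Every C89 library lay above every DMSO library, with no overlap and a wide gap. The means were 5993 ± 326 in C89 and 1236 ± 318 in DMSO (SD, n = 3 each), a ratio of 4.85. On the log2(value + 1) scale the difference was 2.31 (SE 0.15, 95% interval 1.99 to 2.63, limma adjusted p = 5.02e-06), the lowest p but 3, or rank 4, of 18954 genes tested. Ddx55 was singled out with this rise known, so the values describe it and are no independent test. Of the 3722 genes that averaged 1000 normalized counts or more, 6 had a log2 fold change as high, Ddx55 included.

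The DMSO libraries differed among themselves more in Ddx55 than in other helicases. Its SD on the log2 scale was 0.38 in DMSO and 0.08 in C89 libraries. Among the 47 members averaging 200 normalized counts or more, the widest spread in DMSO after Ddx55 was 0.24, in Ddx43, and the median was 0.11. The third DMSO library was lowest in Ddx55 and the first was highest. Without the third the log2 fold change was 2.12, without the first 2.49, and the call held without any 1 of the 6 libraries. In the authors' deposited table the log2 fold change of Ddx55 is 2.16.

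**Figure D1:**
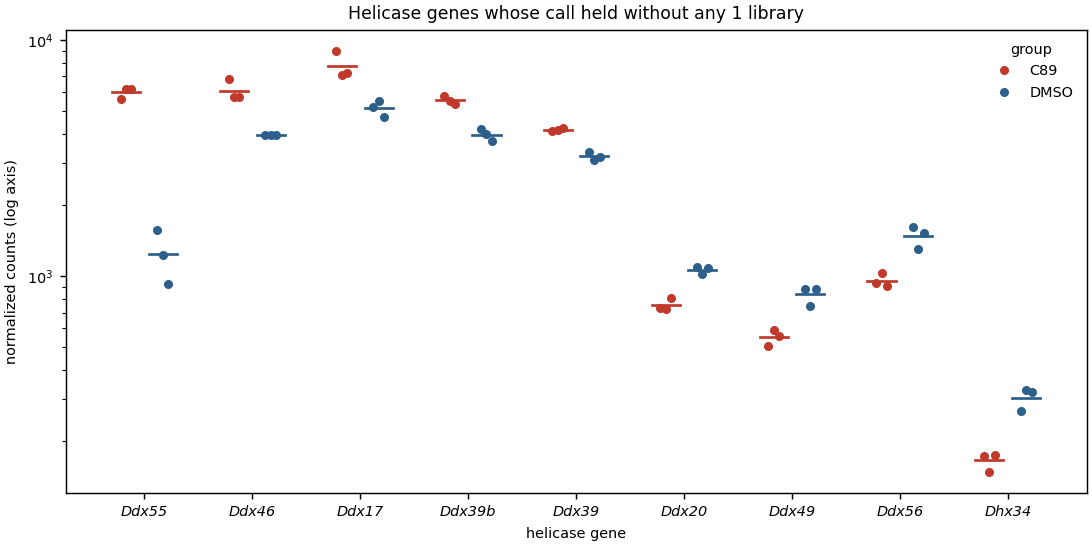
Normalized counts (log axis) of the 9 helicase genes whose call held without any 1 library, with the 3 C89 libraries in red left of the 3 DMSO libraries in blue. Points are libraries and lines are group means, and the groups do not overlap in any of the 9, with the widest gap in Ddx55 (5993 ± 326 in C89, 1236 ± 318 in DMSO).

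Set per length, the rise carried Ddx55 up the order of the family. Exon length was taken from the GENCODE M21 annotation, in kilobases. Ddx55 was at 1131 ± 61.6 normalized counts per kilobase in C89 and 233 ± 59.9 in DMSO libraries (SD, n = 3 each). It ranked 7, 6 and 6 of the 49 members in the C89 libraries, and 23, 26 and 33 in the DMSO libraries. Its share of the summed per-length level of all members was 5.05% ± 0.377 in C89 and 1.18% ± 0.281 in DMSO libraries. The top of the order by group mean was held by the same 5 genes in both groups: Ddx5, Ddx21, Ddx18, Ddx3x and Ddx39b, from 1467 to 2053 per kilobase in C89 and from 1050.2 to 1717 in DMSO. The summed counts of the 48 other members were 110731 ± 4202 in C89 and 99657 ± 3890 in DMSO libraries, a ratio of 1.11. That sum is weighted to the most abundant genes and depends on scaling. The median log2 fold change of all 49 members was 0.01, and -0.14 with scaling by total reads.

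**Figure D2:**
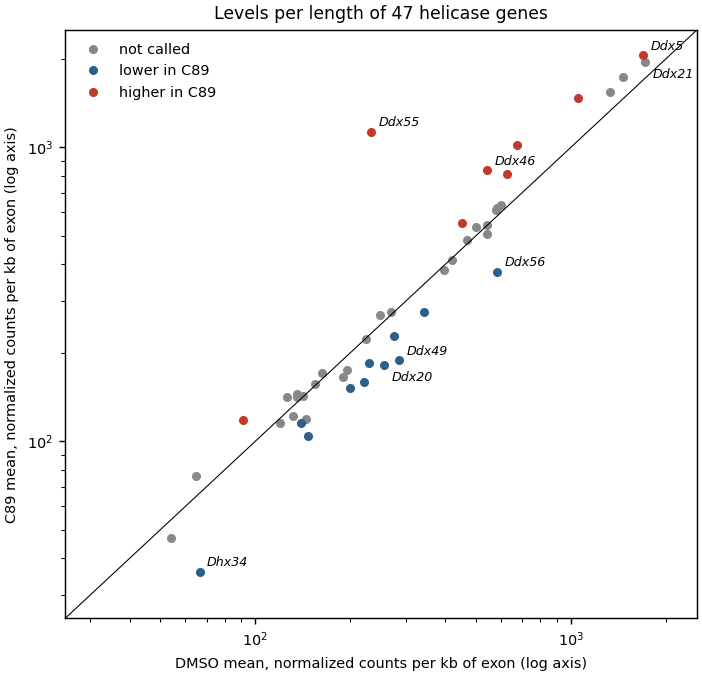
Mean level of 47 helicase genes per kilobase of exon in C89 (vertical) and DMSO libraries (horizontal), both on log axes, with the line of equal levels. Most genes lie along the line; Ddx55 lies far above it at 1131 in C89 and 233 in DMSO, and Dhx34 is the lowest of the genes below it.

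Members changed in both directions. Of the 49 members, all of which passed the filter of a mean of at least 1, 8 rose and 11 fell at an adjusted p under 0.05. Over all genes tested, 12.5% rose and 13.6% fell, 26.1% in all. Members are well expressed, and among genes averaging 200 normalized counts or more 39.8% were called, near the 19 of 47 for such members. The median log2 fold change of the members was 0.01, beside -0.03 for all genes tested. Of the 48 members other than Ddx55, 41 had a log2 fold change under 0.5 in size. Ddx55 was the 1 member both called and changed by at least 1 on the log2 scale, a mark that 6.97% of all genes reached. The median size was 0.20 in members with a mean of at least 200, beside 0.25 in all such genes. C89 and DMSO libraries did not overlap in 23 of 49 members, where the share over all genes was 40.9%. Among genes averaging 200 normalized counts or more that share was 55.4%. The gap of Ddx55 to the median of the other members was 2.30 on the log2 scale. By class, 7 of 34 Ddx genes rose and 5 fell, and 1 of 15 Dhx genes rose and 6 fell; the difference between the classes was not tested.

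The counts depended on single libraries and on scaling, while Ddx55, Ddx46, Ddx17, Ddx39b and Ddx39 stayed higher and Dhx34, Ddx56, Ddx49 and Ddx20 lower without any 1 library. Higher members numbered 5 when C89 library 2, C89 library 3 or DMSO library 2 was left out. Lower members numbered 5 when DMSO library 2 or 3 was left out and 6 when C89 library 2 or 3 was. With C89 libraries 2 and 3 averaged, 5 rose and 6 fell: Ddx5, Ddx51 and Dhx9 were no longer called higher (limma adjusted p = 0.072 to 0.105), nor Ddx28, Dhx8, Dhx16, Dhx30 and Dhx38 lower (0.0518 to 0.155). With scaling by total reads, which put the median of all genes at -0.17, 5 members rose and 15 fell, and the share of calls that were higher was 25% in place of 42.1%.

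**Figure D3:**
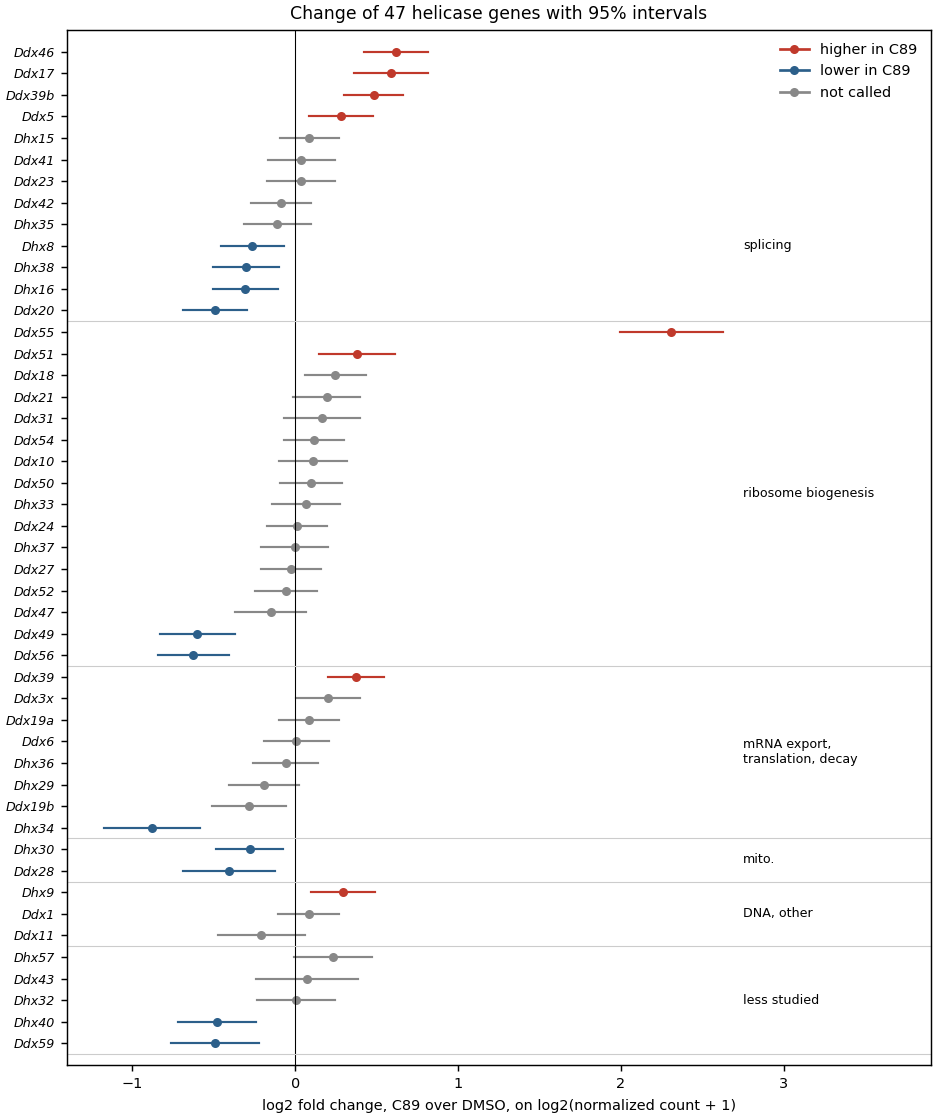
Log2 fold change of 47 helicase genes, C89 over DMSO, with 95% intervals from limma, grouped by role. Red and blue mark genes called higher and lower and grey marks the rest; Ddx55, at 2.31, is the 1 gene outside the range of -0.88 to 0.62.

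Among the 13 helicases of splicing, 4 rose and 4 fell (61.5% called, beside 26.1% of all genes and 39.8% of genes averaging 200 or more), with a median log2 fold change of 0.03. Of these 8 calls, 4 were lost with C89 libraries 2 and 3 averaged. Ddx39b (UAP56) and Ddx46, which act early, when the U2 particle is brought to the branch site, rose. Ddx46 was at 6841, 5713 and 5734 in C89 and at 3941, 3967 and 3972 in DMSO libraries (log2 fold change 0.62, SE 0.09, limma adjusted p = 5.08e-04). The first C89 library was the highest, and no library overlapped. Ddx39b was at 5549 ± 228 in C89 and 3973 ± 239 in DMSO (log2 fold change 0.48, adjusted p = 0.00135). Ddx42, which binds the U2 particle, and Ddx23, which releases U1 from the start of the intron, had log2 fold changes of -0.09 and 0.03 (95% intervals -0.27 to 0.09 and -0.18 to 0.24).

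Dhx16, Dhx38 and Dhx8, the counterparts of yeast Prp2, Prp16 and Prp22, which drive the catalytic steps and the release of the spliced mRNA, all fell, each by little. Dhx16 was at 1182, 1055 and 1147 in C89 and at 1506, 1299 and 1387 in DMSO libraries (log2 fold change -0.31, SE 0.09, adjusted p = 0.0269). Dhx38 was at 918 ± 23.4 in C89 and 1135 ± 94.2 in DMSO (log2 fold change -0.30, adjusted p = 0.029), and Dhx8 at 1148 ± 53.6 and 1380.3 ± 97.3 (log2 fold change -0.26, adjusted p = 0.0461). These 3 calls are fragile. Dhx16 kept its call only when the first C89 library was left out (adjusted p = 0.0519 to 0.125 without any other). Dhx38 lost it without any 1 C89 library or the third DMSO library (0.0712 to 0.0893), and Dhx8 without the second or the third library of either group (0.0877 to 0.163). Dhx15, the Prp43 counterpart that takes the spent spliceosome apart, was at 5413 ± 253 in C89 and 5099 ± 312 in DMSO (log2 fold change 0.09, 95% interval -0.10 to 0.27), and -0.06 with scaling by total reads.

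Of the other splicing members, Ddx17 and Ddx5, close relatives that serve in splicing and as partners of transcription factors, rose. Ddx17 was at 8947, 7090.4 and 7215 in C89 and at 5188, 5520.2 and 4722 in DMSO libraries (log2 fold change 0.59, SE 0.10, adjusted p = 0.00163). Ddx5, with the highest mean count of the family, was at 11859 ± 586 in C89 and 9784 ± 813 in DMSO (log2 fold change 0.28, adjusted p = 0.0393). Its call was kept only when the first DMSO library was left out (0.0992 to 0.143 without any other) and was lost with scaling by total reads (0.291). Ddx20 (Gemin3), of the SMN complex that loads proteins onto spliceosomal RNAs, fell: it was at 734, 725 and 804 in C89 and at 1088, 1016 and 1078 in DMSO libraries (log2 fold change -0.49, SE 0.09, adjusted p = 0.00197). Ddx41 and Dhx35 had log2 fold changes of 0.04 and -0.11, neither called.

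Of the 16 helicases of ribosome biogenesis and the nucleolus, Ddx55 among them, 2 rose, 2 fell and 12 were not called. The share called was 25%, near the 26.1% of all genes. It was below the 39.8% of genes averaging 200 or more, a level that each of the 16 reached. The median log2 fold change was 0.06 for the 15 other than Ddx55. Ddx51, which also acts on the large subunit, was at 616, 636 and 612 in C89 and at 545, 442 and 451 in DMSO libraries (log2 fold change 0.38, SE 0.11, adjusted p = 0.0211). That call was lost without the second or the third library of either group (0.071 to 0.105) and with scaling by total reads (0.121). Ddx56, likewise a factor of the large subunit in yeast, moved the other way, at 934, 1026 and 905 in C89 and at 1612, 1306 and 1516 in DMSO libraries (log2 fold change -0.63, SE 0.10, adjusted p = 8.92e-04). Per kilobase it went down the order of the family, ranking 20 of 49 in C89 and 10 in DMSO.

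Ddx49, which works on precursors of the small subunit in yeast, fell to 504, 589 and 559 in C89, against 881, 745 and 884 in DMSO libraries (log2 fold change -0.60, SE 0.11, adjusted p = 0.00157). In GENCODE M21, 29.8% of its exon bases overlap Homer3 on the opposite strand, whose mean was 177 in C89 and 168 in DMSO; a directional library kit is among those named in the labels, and whether reads were counted by strand is not given in the sources used here. Ddx21 and Ddx18, the most abundant of the group per kilobase, were not called. Ddx21, which promotes the making of ribosomal RNA, was at 10121 ± 444 in C89 and 8887 ± 892 in DMSO (95% interval of the log2 fold change -0.01 to 0.40). Ddx18 did not overlap between groups, at 4133, 4310.3 and 4419.6 in C89 and 3889, 3298 and 3683 in DMSO libraries. It just missed the threshold (limma adjusted p = 0.0553, and 0.0293 without the first DMSO library). The authors' deposited adjusted p was 0.0327. On the recovered reads it was 0.0344 with DESeq2 and 0.0888 with edgeR, and limma scaled by total reads gave 0.431. The other 10 members of the group had log2 fold changes of -0.15 to 0.16.

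Of 9 helicases of mRNA export, translation and decay, 1 rose and 1 fell (22.2%, beside 26.1% of all genes and 39.8% of genes averaging 200 or more). Dhx34, a factor of nonsense-mediated decay, had the largest fall of the called members, at 174, 148 and 175 in C89 and at 267, 327 and 322 in DMSO libraries. The groups did not overlap, and the log2 fold change was -0.88 (SE 0.14, adjusted p = 7.49e-04). Ddx39, the close relative of Ddx39b that also serves in mRNA export, rose with it: 4117, 4154 and 4232 in C89, against 3363, 3109 and 3198 in DMSO libraries (log2 fold change 0.37, SE 0.08, adjusted p = 0.00435). Of its exon bases, 17.4% overlap Adgre5 on the opposite strand, which was at 26.1 in C89 and 42.4 in DMSO.

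Ddx3x, an X-linked helicase of translation initiation, was at 8101 ± 775 in C89 and 7029.8 ± 283 in DMSO (log2 fold change 0.20, adjusted p = 0.127). Ddx6, which represses mRNAs and aids their decapping, was at 4369 ± 351 in C89 and 4353 ± 329 in DMSO (95% interval of the log2 fold change -0.19 to 0.20). Ddx19a and Ddx19b, which release mRNA at the nuclear pore, had log2 fold changes of 0.08 and -0.28 (adjusted p = 0.508 and 0.0662; 0.0211 for Ddx19b without the first C89 library). They are near-identical copies, so the split of reads between them is uncertain. Dhx29 and Dhx36 had log2 fold changes of -0.19 and -0.06 and were not called. Ddx25, known for its role in the testis, had 9 reads in all, each in the third DMSO library.

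Both helicases of mitochondrial RNA were called lower, a group of only 2 genes. Beside them, 26.1% of all genes and 39.8% of genes averaging 200 or more were called in either direction. Ddx28, which helps assemble the large subunit of the mitochondrial ribosome, was at 298, 325 and 405 in C89 and at 435, 424 and 497 in DMSO libraries (log2 fold change -0.41, SE 0.13, adjusted p = 0.0371). Dhx30, a factor of the same ribosome, was at 1222 ± 73.4 in C89 and 1485 ± 135 in DMSO (log2 fold change -0.28, adjusted p = 0.0461). Neither call is firm. Ddx28 kept its call only when the third C89 library was left out and Dhx30 only when the first was; without any other library, adjusted p values were 0.062 to 0.141 for Ddx28 and 0.0669 to 0.174 for Dhx30.

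Among members with other duties, Dhx9 (RNA helicase A), which acts in transcription and on double-stranded RNA, was at 5300.0 ± 245 in C89 and 4332 ± 401 in DMSO (log2 fold change 0.29, SE 0.09, adjusted p = 0.0295). The call held without the third DMSO library and was lost without any other (0.0675 to 0.135) and with scaling by total reads (0.256). Ddx1, of the tRNA ligase complex, and Ddx11, a DNA helicase of sister chromatid cohesion, were not called, at 0.08 and -0.21. Ddx60, an antiviral gene of the interferon response, had 1, 2 and 2 reads in C89 and 2, 0 and 1 in DMSO libraries, too few to compare. Dhx40 was at 585, 715 and 711 in C89 and at 880.2, 884 and 1039.7 in DMSO libraries (log2 fold change -0.48, SE 0.11, adjusted p = 0.00701; 0.0578 without the second DMSO library). Ddx59 was at 307 ± 27.6 in C89 and 433 ± 51.9 in DMSO (log2 fold change -0.49, adjusted p = 0.0115), a call lost without the third C89, the second DMSO or the third DMSO library (0.0529 to 0.0764). Dhx32, Ddx43 and Dhx57 had log2 fold changes of 0.01, 0.07 and 0.23 and were not called.

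**Figure D4:**
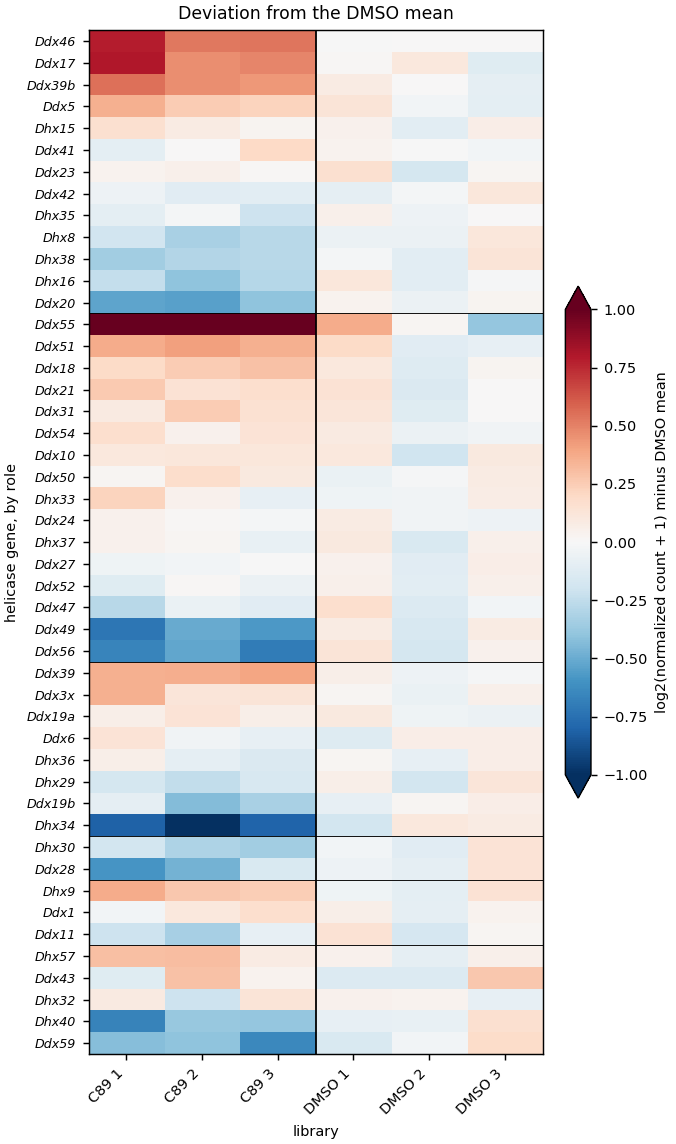
Deviation of each library from the DMSO mean, on the log2(normalized count + 1) scale, for 47 helicase genes in rows grouped by role, with the C89 libraries left of the DMSO libraries. The colour scale ends at 1 in each direction; Ddx55 lies beyond it in the C89 libraries (2.22, 2.35 and 2.36), and within DMSO it runs between 0.37 in the first library and -0.38 in the third.

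The promoters of Ddx55, of Ddx46, the next largest rise among the called members, and of Dhx34, the largest fall, are shown as examples from each direction. Each is 300 bases around a RefSeq transcript start (for Dhx34 the first of 2 listed), from the RefSeq table of build GRCm38.p6; capitals mark CCGGAA, the core bound by ETS family factors, on either strand.
Ddx55 (chr5:124552614-124552913, plus strand): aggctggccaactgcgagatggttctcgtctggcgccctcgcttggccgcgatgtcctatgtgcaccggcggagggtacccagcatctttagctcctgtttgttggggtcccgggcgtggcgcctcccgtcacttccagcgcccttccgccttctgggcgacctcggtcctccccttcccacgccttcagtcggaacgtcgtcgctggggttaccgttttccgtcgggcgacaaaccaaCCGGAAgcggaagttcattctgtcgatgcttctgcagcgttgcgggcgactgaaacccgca
Ddx46 (chr13:55634749-55635048, plus strand): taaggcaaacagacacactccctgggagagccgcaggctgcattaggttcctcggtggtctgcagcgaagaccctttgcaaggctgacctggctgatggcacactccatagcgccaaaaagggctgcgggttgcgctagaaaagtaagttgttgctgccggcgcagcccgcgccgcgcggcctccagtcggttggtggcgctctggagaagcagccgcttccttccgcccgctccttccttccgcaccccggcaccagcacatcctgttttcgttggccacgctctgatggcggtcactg
Dhx34 (chr7:16221983-16222282, minus strand): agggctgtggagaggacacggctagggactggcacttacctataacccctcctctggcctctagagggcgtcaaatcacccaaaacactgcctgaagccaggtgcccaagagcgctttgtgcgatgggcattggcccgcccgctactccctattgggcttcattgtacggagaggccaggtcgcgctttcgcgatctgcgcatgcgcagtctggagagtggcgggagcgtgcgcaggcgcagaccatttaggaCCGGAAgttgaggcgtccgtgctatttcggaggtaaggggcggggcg

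CCGGAA stood once in the windows of Ddx55 and Dhx34 and not in that of Ddx46. The E-box CACGTG, which MiT/TFE and MYC family factors bind, and the TATA motif TATAAA, both searched on either strand too, were in none of these 3 windows, and no matches overlapped there. RefSeq promoters were matched for 44 of the 49 members. CCGGAA was found in 22 of these 44, among them 5 of the 7 that rose, 5 of the 10 that fell and 12 of the 27 not called. Counted per promoter, 45.5% of the members' 55 windows held it, beside 31.4% of 8604 windows of genes averaging 200 normalized counts or more and 14.9% of all 32851 windows. CACGTG was in 10.9% of the members' windows, equal to the 10.9% of windows of genes at that level of expression, and in 7.15% of all. TATAAA was in 9.09% of the members' windows, beside 6.22% at that level of expression and 13.6% of all. These letter matches describe the windows and were not tested.

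Helicases outside the Ddx and Dhx names moved in both directions as well. Of 17 other RNA and related helicases tested, 3 rose and 6 fell, with a median log2 fold change of -0.09. The shares called were 26.1% of all genes and 39.8% of genes averaging 200 or more. Eif4a2, which encodes a DEAD box helicase of translation initiation, was at 6271 ± 314 in C89 and 4089 ± 763 in DMSO (log2 fold change 0.63, adjusted p = 0.00222; 0.061 without the second DMSO library). Supv3l1, a helicase of mitochondrial RNA decay, was at 745 ± 43.0 in C89 and 1025 ± 52.0 in DMSO (log2 fold change -0.46, adjusted p = 0.00319). Helz was lower at -0.65 (adjusted p = 0.00356), a call lost without the third C89 or the second DMSO library (0.0513 to 0.0731). Calls in this list numbered 0 higher and 1 lower without the second DMSO library, and 1 and 2 when C89 library 2, C89 library 3 or DMSO library 3 was left out. They numbered 1 higher and 3 lower with C89 libraries 2 and 3 averaged.

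Of 37 cofactors that switch helicases on or off, 3 rose and 10 fell (median -0.07). Calls covered 26.1% of all genes and 39.8% of genes averaging 200 or more. Lower cofactors numbered 4 to 5 when library 2 or 3 of either group was left out and 5 with C89 libraries 2 and 3 averaged, and higher ones numbered 6 without the first DMSO library. Casc3, which with Eif4a3 forms part of the complex left at exon junctions, was at 2595 ± 71.6 in C89 and 1384 ± 111 in DMSO (log2 fold change 0.91, SE 0.09, adjusted p = 3.33e-05). Eif4g3, a scaffold of the initiation factor that holds eIF4A, rose by 0.58 and Gpatch8, a G-patch protein, fell by 0.56 on the log2 scale.

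Of 33 other factors of the large ribosomal subunit, 6 rose and 1 fell, with a median log2 fold change of 0.24. Beside them, 26.1% of all genes and 39.8% of genes averaging 200 or more were called. Rrp1b was at 2513 ± 63.0 in C89 and 1803 ± 214 in DMSO (log2 fold change 0.49, adjusted p = 0.00297), and Wdr12 and Nop16 were at 0.44 and 0.49. The call of Nop16 was lost without the second or the third library of either group (0.0893 to 0.188). Higher genes of this list numbered 2 when C89 library 2, C89 library 3 or DMSO library 2 was left out, 3 when DMSO library 3 was and 15 when DMSO library 1 was. With C89 libraries 2 and 3 averaged, 2 rose and 1 fell. Scaled by total reads, 2 rose and 2 fell.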

How the data were processed

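The authors deposited 1 table of 54232 genes with a value per library. The submitters' processing notes list HISAT2, an aligner, and DESeq2. The sources used here name neither build, annotation nor counting program. Per-library values deposited by the authors are normalized counts, a signal in which each library's reads were scaled by 1 factor, since low values fall on even steps: 119020 values above 0 (100%) were whole reads within 0.01 read. The deposited log2 fold changes and adjusted p-values are the authors' own, per the file headers. A gene with a text cell was left out, and 6 unnamed columns were not used. Symbols of members are those deposited; other lists were matched by deposited symbol or by the current symbol of the gene identifier.

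limma 3.58.1 (R 4.3.3) with a mean-variance trend was fitted to log2(value + 1) of the 18954 genes that averaged 1 or more, with group as the only term, adjusted by Benjamini-Hochberg over all of them at 0.05. Such fold changes understate those of low genes. On the recovered reads, edgeR 4.0.16 called 4652 genes and DESeq2 1.42.0 called 4511, both as alternatives. Named genes were Ddx55, all called members, the 5 of highest mean, the extremes of each role and the 3 lowest p of each related list; further members were named after their values were seen. The members and lists were chosen with earlier results of these data known. Protein sequences were not used here. Figures were drawn with matplotlib 3.10.9.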

Additional observations from a re-analysis of the deposited data

How the results depend on the processing

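The rise of Ddx55 and its gap to the median of the other members (2.30) held under every alternative run; the gap was 2.09 to 2.46 with 1 library left out. The count of 8 higher and 11 lower members became 3 and 4 without the mean-variance trend, where 1921 genes were called in all in place of 4946. It became 5 and 6 with C89 libraries 2 and 3 averaged (3297 genes in all), and 5 and 15 with scaling by total reads (1514 genes higher and 4100 lower, in place of 2365 and 2581). Leaving out 1 library gave 5 to 8 higher and 5 to 10 lower members, and 2303 to 4711 genes. The correlations of same-numbered deviations from the group means were -0.19, -0.18 and 0.02, where those of unlike numbers ran from -0.16 to 0.26. Such deviations, taken from means of 3 libraries, cannot show whether libraries were paired. With the replicate block 6 members rose and 7 fell, of 4092 genes in all. Among members near 0, scaling by total reads turned the sign of Ddx1 (-0.067), Ddx10 (-0.04), Ddx19a (-0.0643), Ddx23 (-0.12), Ddx24 (-0.14), Ddx41 (-0.11), Ddx43 (-0.0773), Ddx50 (-0.0533), Ddx54 (-0.0339), Ddx6 (-0.14), Dhx15 (-0.0617), Dhx32 (-0.14) and Dhx33 (-0.0848). Values of Ddx6 and Dhx32 were also -0.0026 and -0.0009 with TMM scaling, Ddx6 was -0.0013 with edgeR, and Dhx37 was 0.009 with the averaged libraries. With 1 library left out the sign of 9 uncalled members turned within these ranges: Ddx23 -0.0571 to 0.114, Ddx24 -0.0133 to 0.0532, Ddx27 -0.0812 to 0.009, Ddx41 -0.0443 to 0.104, Ddx43 -0.04 to 0.208, Ddx6 -0.0597 to 0.0484, Dhx32 -0.0564 to 0.113, Dhx33 -0.0177 to 0.136 and Dhx37 -0.0794 to 0.0472. Depth limits Ddx25 and Ddx60, and the second C89 library is the shallowest.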

Other observations

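Ddx55 lies on chromosome 5, in the RefSeq order, between Tmed2 and Eif2b1, neither of which was called. Tmed2, a cargo receptor of the early secretory pathway, was at 2739.9 ± 93.6 in C89 and 2635 ± 194 in DMSO libraries (SD, n = 3 each; log2 fold change 0.06, limma adjusted p = 0.665). Eif2b1, a subunit of the exchange factor for eIF2, was at 854 ± 60.6 in C89 and 981 ± 110.5 in DMSO (log2 fold change -0.20, adjusted p = 0.194). Farther along, Tctn2, a gene of the ciliary transition zone, named after its values were seen, was at 753, 451 and 506 in C89 and at 197, 116 and 77.2 in DMSO libraries. Its groups did not overlap (log2 fold change 2.19, SE 0.28, adjusted p = 1.95e-04), and Gtf2h3, which lies between Eif2b1 and Tctn2, had a log2 fold change of 0.37 (adjusted p = 0.0121). Gtf2h3 was no longer called when C89 library 3 or DMSO library 2 was left out (adjusted p = 0.0744 to 0.0769), or when scaled by total reads. On the other side of Ddx55, beyond Tmed2, Rilpl1 averaged only 3.46 in C89 and 9.35 in DMSO libraries. Its log2 fold change was -1.42 and it was not called (limma adjusted p = 0.0913).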
